A study of Mus musculus with 72 samples.

Results

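Glycolysis and the response to low oxygen were followed in mouse macrophages through 33 named genes: glucose transporters, glycolytic enzymes, the enzymes that set the activator of phosphofructokinase, genes of lactate and pyruvate handling, the hypoxia-inducible factor Hif1a with its oxygen sensors, and classical hypoxia-induced genes. The list names genes of these roles, sets no threshold on values and was drawn up with earlier results of these data known. Its genes were matched by symbol to the rows of 3 deposited expression tables. The table of marrow-derived macrophages lists 27 of them among 9179 genes, the table of the RAW264.7 experiments of 16 h and 6 h lists 28 among 8983, and the table of the RAW264.7 experiment with interferon beta 1 (IFNB1) lists 32 among 18254. All 3 tables list 26 of the genes and at least 1 table lists 32, out of 18472 identifiers in all. Egln3 has no row in any table, Pfkfb4, Ldha and Ankrd37 have a row only in the IFNB1 table, Vegfa and Ddit4 have none in the marrow-derived table and P4ha2 has none in the 16 h and 6 h table. Values are TPM, a relative abundance scaled to transcript length and to the library's total, and differences were tested with limma on log2(TPM + 1). A gene was tested where it reached 1 TPM in at least 3 libraries of its experiment: all 27 and all 28 passed, and 30 of 32 passed in the IFNB1 experiment, where Pfkfb4 and P4ha2 did not.

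The study concerned the histone methyltransferases Setd1b and Setd1a in the macrophage response to lipopolysaccharide (LPS, a bacterial cell wall component) and dexamethasone (Dex, a synthetic glucocorticoid). It holds 72 libraries in 24 groups of 3, which the design text calls biological replicates. The labels do not say which libraries came from separate mice or cultures, and p-values here reflect only how these libraries vary, part of which may be technical. Marrow-derived macrophages (BMDM) came from C57BL/6J mice and were differentiated for 7 days with L929 cell supernatant. Their 2 genotypes are labelled Setd1bKO and, for the controls, Setd1bHet, although the control titles read wild type. The controls may therefore carry a changed Setd1b allele too. RAW264.7, a male BALB/c macrophage line, was labelled wild-type or Setd1aDel/+ (written Setd1aDel here), a heterozygous deletion, and the sources used here do not give how many clones are behind it. In the BMDM and in the RAW264.7 experiment of 16 h, cells received vehicle, LPS at 100 ng/ml for 6 h, or Dex at 1 uM for 16 h with LPS for the last 6 h. In the RAW264.7 experiment of 6 h, vehicle, LPS, Dex with LPS and Dex alone were each given for 6 h. In the third RAW264.7 experiment, all groups received LPS for 6 h, with or without IFNB1 at 10 ng/ml. Vehicle was 0.1% ethanol. The groups given LPS without Dex received it too, for 16 h in BMDM and the 16 h experiment and 6 h in the 6 h experiment. Ethanol is not recorded for the Dex groups or the IFNB1 experiment.

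Glycolysis turns glucose into pyruvate, and macrophages activated by LPS are known to raise it and to export lactate. Hif1a drives many of these genes: with oxygen, the prolyl hydroxylases Egln1 and Egln3 mark it for degradation, and in hypoxia, or after LPS also in normal oxygen, it builds up and binds a short element near its target genes. Its targets include most glycolytic enzymes, Slc2a1, Pdk1, Vegfa, Bnip3, Egln1 and Egln3, so that several oxygen sensors are themselves induced. Glucocorticoids act through a nuclear receptor and are known to induce Ddit4 and to dampen inflammatory genes.

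The element that the hypoxia-inducible factors bind has the core ACGTG or GCGTG, and only ACGTG was counted here. In the 250 bases before each RefSeq transcript start (build GRCm38.p6), searched on both strands with overlapping matches counted, 19 of the 30 members with an entry held it in at least 1 window (63.3%), beside 18.5% of 27025 genes. Over windows these shares were 48.9% of 45 and 16.6% of 32851. Slc2a3, Bnip3l and Ndrg1 have no entry. A match describes these letters only, and is neither a binding site nor a cause. Ldha held 5 matches in a window and Hif1a 3, while Gapdh, Eno1, Tpi1, Hk1 and Pdk1 held 0. The windows of 2 members that rose with LPS in all 3 experiments (Hk2, P4ha1) and of 2 that fell in all 3 (Pdk1, Mxi1) are printed here, 5′ to 3′ on the strand of the gene, with matches to ACGTG or its complement in capitals. Each lies upstream of the annotated gene: Hk2 at chr6:82774455-82774704 on the minus strand, P4ha1 at chr10:59323046-59323295, Pdk1 at chr2:71872974-71873223 and Mxi1 at chr19:53310256-53310505, these 3 on the plus strand.
Hk2: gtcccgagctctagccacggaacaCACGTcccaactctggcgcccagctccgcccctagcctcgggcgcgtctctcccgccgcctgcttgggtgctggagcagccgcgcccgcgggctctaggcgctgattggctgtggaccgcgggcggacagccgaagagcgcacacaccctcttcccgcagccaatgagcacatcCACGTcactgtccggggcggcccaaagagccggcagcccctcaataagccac
P4ha1: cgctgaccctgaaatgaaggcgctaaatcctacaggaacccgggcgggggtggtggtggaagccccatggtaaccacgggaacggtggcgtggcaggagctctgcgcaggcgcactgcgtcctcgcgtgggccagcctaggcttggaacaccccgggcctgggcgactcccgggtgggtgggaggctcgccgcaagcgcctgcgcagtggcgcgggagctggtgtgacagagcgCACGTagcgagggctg
Pdk1: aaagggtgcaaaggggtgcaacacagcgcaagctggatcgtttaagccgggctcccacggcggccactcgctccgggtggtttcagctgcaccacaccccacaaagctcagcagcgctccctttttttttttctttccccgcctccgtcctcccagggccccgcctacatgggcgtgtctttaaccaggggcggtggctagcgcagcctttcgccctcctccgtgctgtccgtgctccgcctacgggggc
Mxi1: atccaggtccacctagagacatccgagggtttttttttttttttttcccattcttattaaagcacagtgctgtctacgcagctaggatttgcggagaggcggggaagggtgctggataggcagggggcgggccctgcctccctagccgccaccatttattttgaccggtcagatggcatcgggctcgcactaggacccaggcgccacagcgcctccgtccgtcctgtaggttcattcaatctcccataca
Hk2 holds 2 matches to ACGTG in its window and P4ha1 1, while the Pdk1 window and this Mxi1 window hold 0. The other form, GCGTG, was not counted and can be read in the printed P4ha1 and Pdk1 windows. Another of the 3 Mxi1 windows holds 1. These 4 were picked as examples after their values were seen, and the letters did not divide the members by direction: 6 of the 7 members that rose in all 3 experiments and 4 of the 7 with an entry of the 9 that fell held at least 1 match. Pfkl, which rose, held 0, and Aldoa, Pkm and Egln1, which fell, held 1 each.

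The listed genes of a library summed to between 837032 and 912839 TPM, and TPM keep no read depth, so the depth behind each value is unknown. In BMDM all 12 macrophage markers were listed, with a summed level of 39392 to 40304 TPM in the vehicle controls, and 11 of 12 were listed in the 16 h and 6 h table. No lymphoid or erythroid marker was listed in the BMDM, 16 h or 6 h data, and the summed levels of these lists in the IFNB1 table were at most 0.8 TPM. Neutrophil, dendritic and fibroblast markers summed to at most 73.1 TPM in any library. Of these, 1 of 11, 1 of 8 and 1 of 8 were listed in BMDM and 0 of 11, 1 of 8 and 0 of 8 in the 16 h data. The low sums there cannot show that such cells were absent. Osteoclast markers, of which 7 of 10 were listed in BMDM and 5 in the 16 h and 6 h table, summed to 913 to 936 TPM in the vehicle controls of BMDM, 149.9 to 166 in the 16 h and 74.7 to 92.1 in the 6 h wild-type cells. LPS raised Il1b by 9.53 on the log2 scale in control BMDM, by 11.74 in the 16 h and by 9.76 in the 6 h RAW264.7 experiment (limma adjusted p at most 7.45e-22). Setd1a was lower in Setd1aDel than in wild-type cells under all 9 treatments, by 0.38 to 1.10 on the log2 scale. The difference passed the limma test in the 5 comparisons of the 16 h and IFNB1 experiments (adjusted p at most 0.0116) and missed it in the 4 of the 6 h experiment (adjusted p 0.0557 to 0.196). Setd1b was not lower in the libraries labelled Setd1bKO: it differed by 1.00 with vehicle (limma adjusted p = 0.00235), 0.20 with LPS (adjusted p = 0.49) and 0.13 with Dex and LPS (adjusted p = 0.68). A level over the whole gene may not see a deleted part, so every direction for that genotype belongs to the labels.

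In control or wild-type cells LPS moved nearly every member, as it moved most of all tested genes, and members went in both directions. The glucose transporter Slc2a1, hexokinase Hk2, phosphofructokinase Pfkl, the activator-forming enzyme Pfkfb3, the lactate exporter Slc16a3, Hif1a and the collagen prolyl hydroxylase P4ha1 rose in BMDM and in both RAW264.7 experiments, which is 7 of the 26 members tested in all 3. Another 9 fell in all 3: Slc2a3, Gpi1, Aldoa, Aldoc, Pkm, Pdk1, Egln1, Bnip3l and Mxi1. How many of all tested genes rose or fell in all 3 was not counted, so these shared counts have no background beside them. In BMDM 9 of 27 members rose, where 20.6% of all tested genes rose, and 18 fell, where 64.7% fell. In the 16 h experiment 12 of 28 members rose, where 17.4% of all tested genes rose, and 13 fell, where 66.1% fell, and in the 6 h experiment 13 of 28 members rose, where 19.5% of all tested genes rose, and 11 fell, where 52.3% fell. The median log2 difference of the members was -0.52, -0.022 and 0.12 in these experiments, beside -0.49, -0.38 and -0.24 over all tested genes. Most tested genes fell, and TPM share a fixed total within a library. Scaling the libraries by the median of ratios shifted the all-gene median by 0.49, 0.38 and 0.24. After it 13 members rose and 12 fell in BMDM, 19 and 5 in the 16 h experiment, and 17 and 7 in the 6 h experiment. Over all genes, 3564 rose and 3556 fell after it in BMDM, 3478 and 3423 in the 16 h and 3072 and 3038 in the 6 h experiment. On TPM as deposited, 9159, 8964 and 8981 genes were tested. All 7 shared risers stayed called after scaling and were joined by Pfkp, Gapdh, Pgk1, Eno1 and Bnip3, while of the 9 shared fallers Pdk1, Egln1, Bnip3l and Mxi1 stayed called in all 3 experiments. In bulk libraries fewer cells of a type and less RNA per cell cannot be told apart, and the summed proliferation markers fell with LPS as well: from 542 to 571 to 174 to 179 TPM in BMDM, from 2307 to 2451 to 722 to 756 in the 16 h and from 1885 to 1924 to 569 to 589 in the 6 h experiment. The proliferation gene Mki67 went against this sum in BMDM, from a mean of 7.28 TPM with vehicle to 15.1 TPM with LPS. Its mean went from 76.3 to 16.2 TPM in the 16 h and from 32.5 to 6.98 TPM in the 6 h experiment. The osteoclast markers summed to 314 to 340.3 TPM with LPS in BMDM, where 5 of 7 fell and 2 rose, to 175 to 184 in the 16 h and to 148 to 161 in the 6 h experiment. The part of these markers in the members' differences was not tested.

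**Figure D1:**
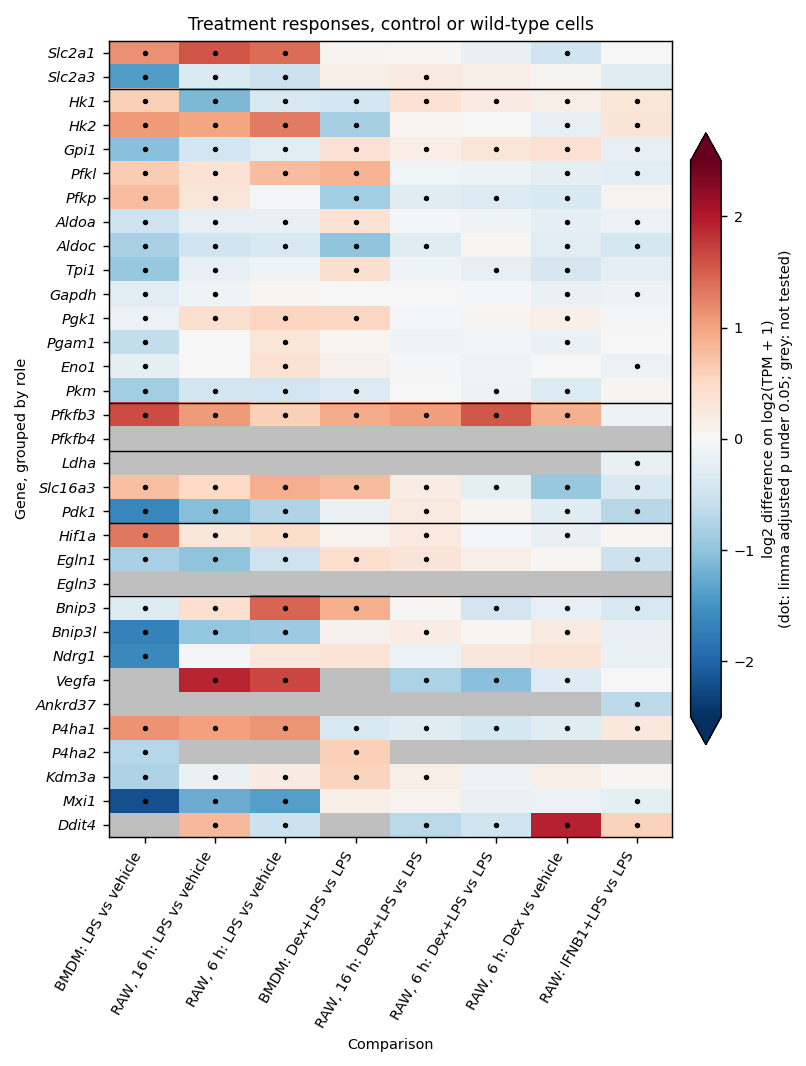
log2 differences on log2(TPM + 1) for the 33 members (rows, grouped by role) in 8 treatment comparisons of control or wild-type cells (columns), with red for higher, blue for lower and grey for not tested. A dot marks a limma adjusted p under 0.05. The 3 LPS columns share red for Slc2a1, Hk2, Pfkfb3 and P4ha1 and blue for Pdk1, Bnip3l and Mxi1.

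The 2 glucose transporters went in opposite directions. Slc2a1 (GLUT1, chr4:119108711-119137983, plus strand), the main glucose importer of activated macrophages, stood at 22.4, 24.2 and 23.5 TPM in the 3 vehicle libraries of control BMDM and at 53.7, 51.9 and 53.7 TPM with LPS. At 16 h it went from 64.4, 67.5 and 59.6 to 191, 186 and 196 TPM, and in the 6 h experiment from 72.7, 72.03 and 73.1 to 189.7, 207 and 184 TPM. Every LPS library lay above every vehicle library in each experiment. The rise was 1.15 ± 0.064 on the log2 scale (± SE) in BMDM, 1.57 ± 0.046 in the 16 h and 1.40 ± 0.068 in the 6 h experiment (limma adjusted p at most 6.91e-11). Slc2a3 (GLUT3, chr6:122727809-122801640, minus strand), a high-affinity transporter, was low in BMDM, at 2.75, 1.70 and 1.58 TPM with vehicle and 0.0855, 0.117 and 0.168 TPM with LPS. In wild-type RAW264.7 cells it read 18.4, 16.8 and 18.2 against 14.1, 13.7 and 13.3 TPM in the 16 h and 11.7, 14.02 and 17.6 against 9.50, 9.14 and 9.81 TPM in the 6 h experiment. LPS libraries lay below vehicle libraries throughout. Slc2a3 fell by 1.40 ± 0.15 in BMDM (limma adjusted p = 3.44e-07), a size that the pseudocount compresses at these levels. The RAW264.7 falls of 0.36 ± 0.056 and 0.54 ± 0.13 (limma adjusted p = 2.46e-05 and 0.0013) became 0.032 and -0.30 after median-of-ratios scaling, neither of them called.

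At the entry of the pathway, LPS moved the hexokinases, which trap glucose in the cell, apart. Hk2, the inducible form, went from 7.89, 8.62 and 7.50 to 17.1, 17.96 and 18.6 TPM in control BMDM, from 22.3, 22.3 and 21.9 to 45.1, 44.5 and 44.4 in the 16 h and from 12.6, 13.3 and 11.4 to 31.5, 31.99 and 32.9 in the 6 h experiment. These groups did not overlap, and the rises were 1.07 ± 0.11, 0.98 ± 0.033 and 1.31 ± 0.072 on the log2 scale (limma adjusted p at most 1.52e-07). Hk1, the constitutive form, rose in BMDM, from 19.6, 20.99 and 21.7 to 30.1, 32.3 and 32.6 TPM, by 0.59 ± 0.055 (limma adjusted p = 4.98e-08). In RAW264.7 cells it fell instead, from 63.8, 66.4 and 62.5 to 29.6, 28.3 and 28.3 TPM in the 16 h experiment, by 1.13 ± 0.045 (limma adjusted p = 1.36e-12), and by 0.41 ± 0.054 in the 6 h experiment (limma adjusted p = 1.20e-06). The difference between the cell types was not tested, since the tables were normalized separately. The phosphofructokinase isoforms catalyse the committed step. Pfkl rose by 0.64 ± 0.066 in BMDM, 0.36 ± 0.035 in the 16 h and 0.78 ± 0.050 in the 6 h experiment. Pfkp rose by 0.77 ± 0.050 and 0.30 ± 0.044 in the first 2 and differed by -0.052 ± 0.072 in the third, where it was not called (limma adjusted p = 0.534) and turned to 0.20 with scaling. Gpi1, the isomerase between these steps, fell in all 3, by 1.04 ± 0.042, 0.48 ± 0.039 and 0.27 ± 0.033, and after scaling by 0.51, 0.065 and 0.0087, with only the BMDM value still called.

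Pfkfb3 (chr2:11471433-11554077, minus strand) makes fructose 2,6-bisphosphate, the strongest activator of phosphofructokinase, and had the largest LPS rise among the 27 members in BMDM. It read 11.3, 11.8 and 11.9 TPM with vehicle and 39.7, 37.8 and 37.04 TPM with LPS there. In RAW264.7 cells it went from 10.2, 11.1 and 11.6 to 23.6, 23.8 and 24.6 TPM in the 16 h and from 8.13, 7.09 and 7.56 to 11.5, 12.6 and 11.6 TPM in the 6 h experiment. No LPS library overlapped the vehicle libraries. The rise was 1.63 ± 0.090, 1.07 ± 0.043 and 0.59 ± 0.059 on the log2 scale (limma adjusted p = 6.00e-11, 1.44e-12 and 2.51e-08). Pfkfb4, its relative, was at or near 0 TPM in the 1 table that lists it.

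The enzymes of the lower pathway, from aldolase to pyruvate kinase, all fell in BMDM on TPM as deposited, to different extents. The 13 enzymes from Hk1 to Pkm together held 4619 to 4711 TPM in vehicle-treated control BMDM and 3256 to 3518 TPM with LPS. In RAW264.7 cells they held 14721 to 15930.4 against 13927 to 14099.5 TPM in the 16 h experiment and 11329.6 to 11823 against 11516 to 11675 TPM in the 6 h experiment. On TPM as deposited the sum was thus lower with LPS in the first 2, while the ranges overlapped in the 6 h experiment. The sum was not recomputed after median-of-ratios scaling, which shifted the all-gene median of the LPS differences upward by 0.49, 0.38 and 0.24. Its direction after scaling is therefore not given. In BMDM all of Aldoa, Aldoc, Tpi1, Gapdh, Pgk1, Pgam1, Eno1 and Pkm fell, from -0.95 ± 0.059 for Tpi1 to -0.14 ± 0.032 for Pgk1, but Aldoa, Gapdh, Pgk1 and Eno1 turned to 0.021, 0.28, 0.39 and 0.29 after scaling. In the RAW264.7 experiments Pgk1, which makes the first ATP of the pathway, rose by 0.41 ± 0.038 and 0.54 ± 0.028 (limma adjusted p = 4.50e-08 and 8.16e-13). Pkm, pyruvate kinase, fell by 0.87 ± 0.042, 0.46 ± 0.030 and 0.48 ± 0.036 in the 3 experiments, and by 0.33, 0.046 and 0.22 after scaling, where the 16 h value was not called. Gapdh, Pgk1, Pgam1, Tpi1, Aldoa, Ldha, Pkm and Eno1 have near-identical processed copies in the mouse genome, so their levels are uncertain to the extent that reads were shared. For Eno1, group means of its copy Eno1b lay between 639 and 1092 TPM in the 16 h and 6 h table and between 12.5 and 18.97 TPM in the IFNB1 table. These tables hold different experiments, and whether reads were shared was not tested.

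**Figure D2:**
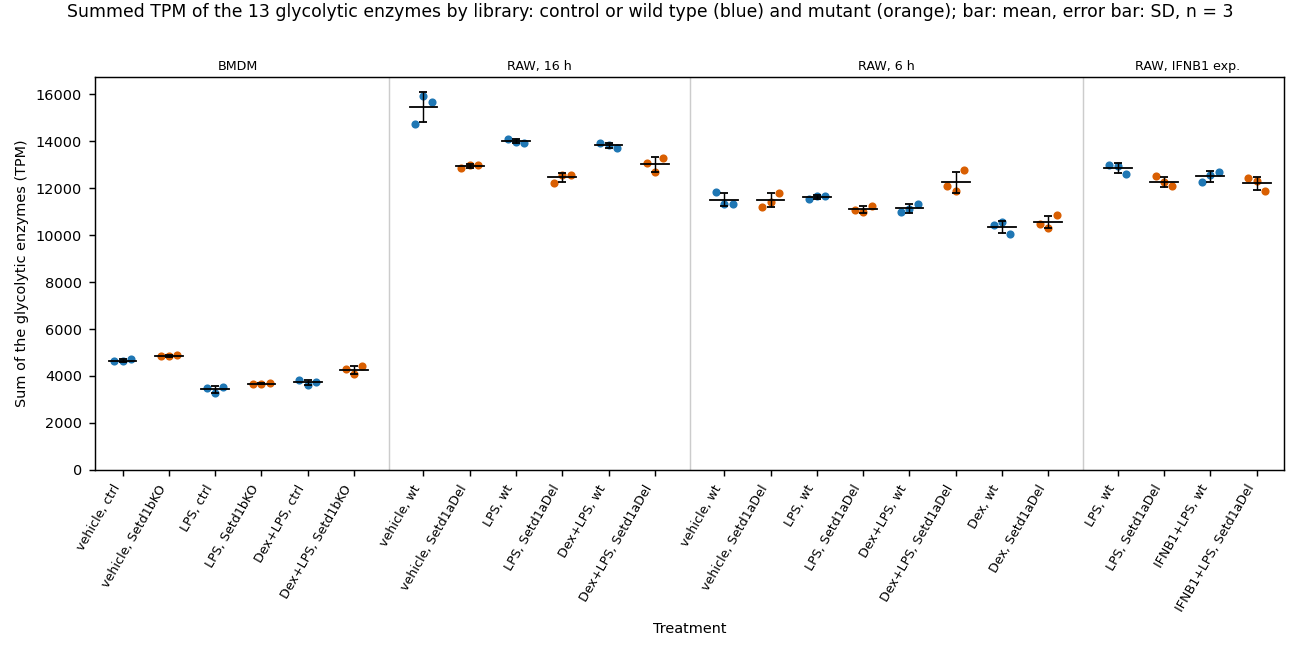
Summed TPM of the 13 glycolytic enzymes in each of the 72 libraries (points), by treatment and genotype, with blue for control or wild-type and orange for libraries labelled Setd1bKO or Setd1aDel. Black bars are the mean and error bars the SD of 3 libraries. The lowest RAW264.7 library sits at 10039 TPM and the highest BMDM library at 4885 TPM.

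Of the genes that set the fate of pyruvate, the lactate exporter rose and the kinase Pdk1 fell. Slc16a3 (MCT4), which exports lactate, went from 14.9, 17.1 and 17.6 to 28.7, 25.8 and 31.2 TPM in control BMDM, from 104, 108 and 108 to 149, 149 and 158 in the 16 h and from 53.2, 53.3 and 53.5 to 101, 102 and 102 in the 6 h experiment. LPS libraries were higher without overlap, by 0.76 ± 0.071, 0.50 ± 0.041 and 0.92 ± 0.070 (limma adjusted p at most 4.84e-08). Pdk1, which holds pyruvate back from oxidation in the mitochondrion and is a classical hypoxia target, went the other way. It fell from 13.7, 13.1 and 10.8 to 3.36, 3.53 and 3.18 TPM in BMDM, by 1.63 ± 0.11, and by 1.06 ± 0.055 and 0.75 ± 0.069 in the RAW264.7 experiments (limma adjusted p at most 8.27e-09). Ldha, the lactate dehydrogenase subunit, is listed only in the IFNB1 table, where no group lacked LPS, at 2060.2, 2092 and 2018 TPM with LPS.

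Hif1a (chr12:73901375-73947530, plus strand), the oxygen-regulated subunit of the factor, rose at the transcript level. It read 22.4, 22.9 and 23.8 TPM with vehicle and 59.7, 59.8 and 56.6 TPM with LPS in control BMDM, 56.6, 59.3 and 57.98 and 72.8, 71.6 and 68.5 TPM in the 16 h and 40.6, 43.02 and 41.5 and 57.99, 55.4 and 57.3 TPM in the 6 h experiment. The LPS libraries were above the vehicle libraries in each, most widely in BMDM. The rises were 1.31 ± 0.080, 0.29 ± 0.045 and 0.44 ± 0.047 (limma adjusted p = 2.35e-10, 2.35e-05 and 6.99e-08). Egln1 (PHD2), the main hydroxylase that marks Hif1a, fell by 0.81 ± 0.12, 1.00 ± 0.055 and 0.53 ± 0.083 (limma adjusted p at most 1.64e-05). TPM measure transcript, and Hif1a is controlled mostly at the protein level, which was not measured.

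The hypoxia-induced genes did not respond to LPS as 1 group. P4ha1, a collagen prolyl hydroxylase subunit, rose from 31.7, 29.2 and 30.1 to 64.4, 71.3 and 66.8 TPM in BMDM, from 58.2, 63.02 and 61.8 to 125, 124 and 125 in the 16 h and from 40.99, 41.5 and 40.8 to 91.02, 90.95 and 85.4 in the 6 h experiment. Vegfa, the endothelial growth factor, rose from 12.3, 13.5 and 15.6 to 54.3, 53.8 and 53.4 TPM and from 14.8, 13.2 and 12.1 to 43.7, 48.3 and 42.7 TPM in the 2 RAW264.7 experiments that list it. Neither gene's groups overlapped. P4ha1 rose by 1.13 ± 0.051, 1.02 ± 0.034 and 1.10 ± 0.050, and Vegfa by 1.90 ± 0.069 and 1.68 ± 0.11 (limma adjusted p at most 3.85e-11). Bnip3l and Bnip3 are receptors that send mitochondria to autophagy, and they parted. Bnip3l fell by 1.70 ± 0.055, 0.96 ± 0.051 and 0.91 ± 0.054. Bnip3 rose in RAW264.7 cells, by 0.41 ± 0.068 and 1.46 ± 0.063, and fell by 0.32 ± 0.074 in BMDM, a fall that turned to 0.19 after scaling. Mxi1, an antagonist of MYC, had the largest fall of the members in BMDM, from 20.4, 22.6 and 21.6 to 4.46, 3.23 and 4.04 TPM, and fell from 40.8, 41 and 46.7 to 17.03, 17.4 and 17.8 and from 37.6, 39 and 37.9 to 13.9, 14.4 and 13.8 TPM in the RAW264.7 experiments. These falls were 2.21 ± 0.14, 1.25 ± 0.059 and 1.38 ± 0.098 on the log2 scale. Ndrg1, a stress-induced gene, fell by 1.62 ± 0.22 in BMDM (limma adjusted p = 3.75e-06) but differed by -0.054 ± 0.086 and 0.27 ± 0.19 in RAW264.7 cells, neither called, the first turning to 0.35 with scaling. Ddit4, an inhibitor of the growth kinase mTOR, rose by 0.81 ± 0.082 in the 16 h experiment and fell by 0.53 ± 0.13 in the 6 h experiment, where -0.29 after scaling was not called. Kdm3a, a histone demethylase, fell by 0.77 ± 0.099 in BMDM and by 0.17 ± 0.047 in the 16 h experiment, the latter turning to 0.20 with scaling, and rose by 0.20 ± 0.071 in the 6 h experiment, a call lost without wild-type LPS replicate 1 or without wild-type vehicle replicate 3 (limma adjusted p up to 0.097).

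**Figure D3:**
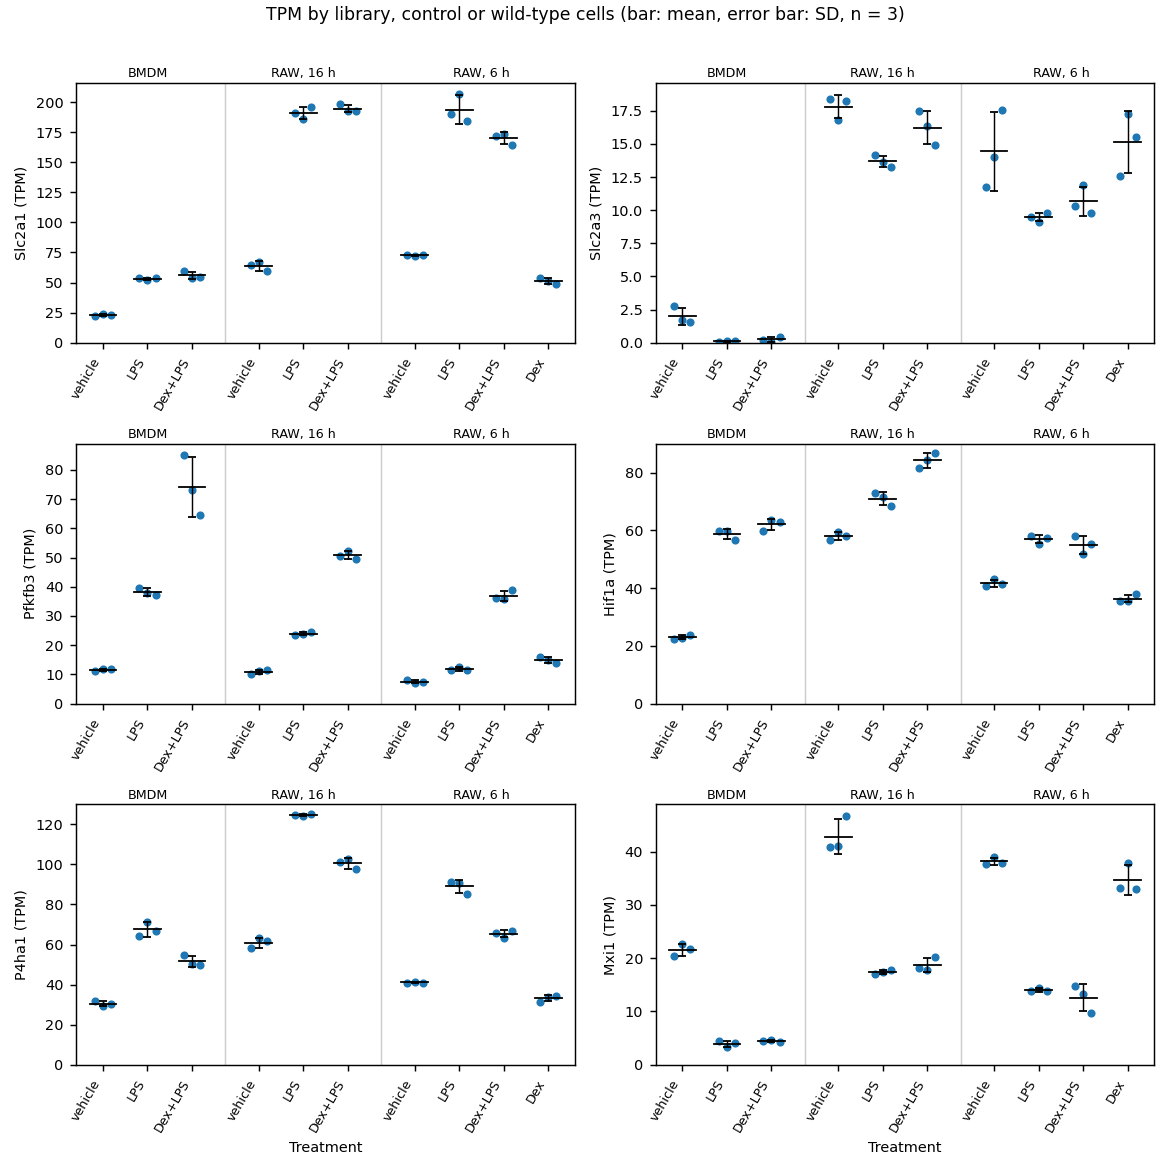
TPM of Slc2a1, Slc2a3, Pfkfb3, Hif1a, P4ha1 and Mxi1 (1 panel each, linear axis from 0) in each library of control BMDM and wild-type RAW264.7 cells, by treatment. Points are libraries, horizontal bars means and error bars SD (n = 3). Slc2a1, Pfkfb3, Hif1a and P4ha1 sit higher with LPS than with vehicle in all 3 experiments, and Mxi1 lower.

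Dex given with LPS was compared with LPS alone. Dex began before LPS in BMDM and in the 16 h experiment, and together with LPS in the 6 h experiment. Pfkfb3 was higher with Dex in all 3 experiments and P4ha1 and Pfkp lower, with Gpi1 as the only other member called the same way in all 3. Shared calls over all tested genes were not counted here either. In control BMDM 11 of 27 members rose, where 44.8% of all tested genes rose, and 6 fell, where 15.2% fell. In the 16 h RAW264.7 experiment 10 of 28 members rose, where 35.2% of all tested genes rose, and 5 fell, where 12.3% fell, and in the 6 h experiment 3 of 28 members rose, where 14.7% of all tested genes rose, and 8 fell, where 10.6% fell. The median log2 difference of the members was 0.14, 0.016 and -0.080, beside 0.18, 0.094 and 0.035 over all tested genes. Median-of-ratios scaling turned the counts to 9 risen and 10 fallen in BMDM, 4 and 13 in the 16 h and 3 and 11 in the 6 h experiment, so the balance of rises and falls depended on the scaling. Over all genes, 1883 rose and 2454 fell after scaling in BMDM, 1774 and 2087 in the 16 h and 999 and 1244 in the 6 h experiment. Pfkfb3, Pfkp and P4ha1 kept their calls after scaling in all 3, and Gpi1 did not. Pkm joined the members fallen in all 3 after scaling. The proliferation markers differed too, from 174 to 179 TPM with LPS to 161 to 167 with Dex and LPS in BMDM and from 722 to 756 to 1088 to 1152 in the 16 h and from 569 to 589 to 661 to 697 in the 6 h experiment. In BMDM 5 of 10 rose and 2 fell although the sum was lower, and in RAW264.7 cells 12 and 11 of 12 rose and 0 fell. The osteoclast markers went from 314 to 340.3 to 200.4 to 215 TPM in BMDM, where 6 of 7 fell. The part of these markers was not tested.

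Pfkfb3 stood at 39.7, 37.8 and 37.04 TPM with LPS and at 85.1, 72.98 and 64.7 TPM with Dex and LPS in control BMDM. In RAW264.7 cells it went from 23.6, 23.8 and 24.6 to 50.6, 52.3 and 49.6 TPM in the 16 h and from 11.5, 12.6 and 11.6 to 36.3, 35.7 and 38.9 TPM in the 6 h experiment. Every library with Dex lay above every library without it. The rise was 0.93 ± 0.090, 1.05 ± 0.043 and 1.56 ± 0.059 on the log2 scale (limma adjusted p = 4.00e-07, 3.97e-11 and 1.06e-13). P4ha1 went the other way, from 64.4, 71.3 and 66.8 to 54.6, 50.2 and 49.8 TPM in BMDM, from 125, 124 and 125 to 101, 103 and 97.6 in the 16 h and from 91.02, 90.95 and 85.4 to 65.7, 63.5 and 66.8 in the 6 h experiment. These groups did not overlap, and P4ha1 fell by 0.38 ± 0.051, 0.31 ± 0.034 and 0.44 ± 0.050 (limma adjusted p at most 1.26e-05). Both genes had risen with LPS, and with Dex present the level of Pfkfb3 was higher and that of P4ha1 lower than with LPS alone.

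In BMDM Dex parted the isoforms of the early steps. Pfkl rose from 23.8, 22.7 and 26.1 to 49.6, 41.8 and 43.03 TPM, while Pfkp fell from 62.2, 60.3 and 61.1 to 35.05, 34.01 and 30.9 TPM. Hk2 fell from 17.1, 17.96 and 18.6 to 10.95, 9.18 and 8.88 TPM and Hk1 from 30.1, 32.3 and 32.6 to 23.5, 22.5 and 20.98 TPM. None of these 4 pairs of groups overlapped, and with Dex the Hk1, Hk2 and Pfkp levels were near those of vehicle libraries. The differences were 0.86 ± 0.066 for Pfkl, -0.86 ± 0.050 for Pfkp, -0.83 ± 0.11 for Hk2 and -0.49 ± 0.055 for Hk1 (limma adjusted p at most 1.24e-05). In RAW264.7 cells Hk1 rose with Dex instead, by 0.36 ± 0.045 and 0.21 ± 0.054, and Hk2 and Pfkl were not called in either experiment (limma adjusted p 0.0606 to 0.896). The authors' deposited results have Pfkl lower in both, at -0.187 in the 16 h and -0.179 in the 6 h experiment. They have Hk2 lower in the 16 h experiment only, at -0.071, each with an adjusted p under 0.05. Slc16a3 rose by 0.80 ± 0.071 in BMDM and by 0.19 ± 0.041 in the 16 h experiment, where 0.079 after scaling was not called. At 6 h it fell by 0.24 ± 0.070, a call lost without wild-type Dex with LPS replicate 2 (limma adjusted p = 0.0638). Bnip3 rose by 0.91 ± 0.074 in BMDM and fell by 0.47 ± 0.063 in the 6 h experiment. The Slc2a1 differences of 0.073 ± 0.064, 0.028 ± 0.046 and -0.19 ± 0.068 were not called, though the BMDM value turned to -0.14 after scaling.

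In RAW264.7 cells Dex lowered Vegfa and Ddit4 under LPS. Vegfa read 54.3, 53.8 and 53.4 TPM with LPS and 30.5, 31.4 and 29.98 with Dex and LPS in the 16 h experiment, and 43.7, 48.3 and 42.7 and 21.1, 19.7 and 22.8 TPM in the 6 h experiment. The groups did not overlap and the falls were 0.79 ± 0.069 and 1.05 ± 0.11 (limma adjusted p = 2.08e-07 and 5.31e-07). Ddit4 fell by 0.67 ± 0.082 and 0.49 ± 0.13. Given alone for 6 h, Dex did the opposite to Ddit4, a known glucocorticoid target: it stood at 14.2, 14.2 and 13.4 TPM with vehicle and 54.3, 59.2 and 53.8 TPM with Dex, a rise of 1.93 ± 0.13 (limma adjusted p = 6.04e-10) and the largest of the 28 members there. With Dex alone 6 of 28 members rose, where 12% of all tested genes rose, and 16 fell, where 24.8% fell, with a member median of -0.18 beside -0.054 over all tested genes, and 7 rose and 14 fell after scaling. Over all genes, 1423 rose and 1759 fell after scaling. The proliferation markers went from 1885 to 1924 to 1439 to 1497 TPM with Dex alone, where 11 of 12 fell and 0 rose, and their part was not tested. Pfkfb3 rose with Dex alone as well, from 8.13, 7.09 and 7.56 to 15.9, 14.96 and 14.1 TPM, by 0.90 ± 0.059 (limma adjusted p = 4.60e-10). Slc16a3 fell from 53.2, 53.3 and 53.5 to 29.9, 24.97 and 26.7 TPM, by 0.95 ± 0.070, and Slc2a1 from 72.7, 72.03 and 73.1 to 53.7, 51.5 and 48.8 TPM, by 0.49 ± 0.068 (limma adjusted p = 2.28e-09 and 1.07e-05). No library of these pairs overlapped.

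In libraries labelled Setd1bKO, whose Setd1b was not lower, the called members with the largest differences from control BMDM were Slc2a3, Pfkfb3, P4ha2, Ndrg1 and Pdk1. With vehicle 7 of 27 members rose, where 9.89% of all tested genes rose, and 4 fell, where 15.4% fell. With LPS 8 of 27 members rose, where 29% of all tested genes rose, and 5 fell, where 12.4% fell, and with Dex and LPS 15 of 27 members rose, where 23.5% of all tested genes rose, and 2 fell, where 11.5% fell. The member medians were -0.0014, 0.060 and 0.18, beside -0.019, 0.096 and 0.073 over all tested genes. The 11 calls with vehicle became 7 without Setd1bKO replicate 2. After median-of-ratios scaling 5 rose and 7 fell with LPS, and 8 and 2 with Dex and LPS. Over all genes, 1451 rose and 1825 fell after scaling with LPS, and 1178 and 1509 with Dex and LPS. The macrophage markers stood apart by genotype: they summed to 25320.1 to 26079, 17946 to 18190.2 and 19683 to 20502 TPM in these libraries with vehicle, LPS and Dex with LPS, beside 39392 to 40304, 26414 to 28268 and 30119.6 to 31712 TPM in controls, and 9, 11 and 11 of 12 fell while 0 rose. The proliferation markers summed to 386 to 413 TPM with vehicle beside 542 to 571 TPM in controls, and 10 of 10 fell. The osteoclast markers summed to 543 to 555 TPM with vehicle beside 913 to 936 TPM in controls. The part of these shifts in the values that follow was not tested.

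Slc2a3 was higher in the libraries labelled Setd1bKO under every treatment, at 7.82, 8.29 and 8.86 TPM with vehicle against 2.75, 1.70 and 1.58 in controls, a difference of 1.65 ± 0.15 (limma adjusted p = 7.47e-07). With LPS it read 0.570, 1.20 and 1.01 against 0.0855, 0.117 and 0.168 TPM, by 0.76 ± 0.15, and with Dex and LPS 1.08, 0.683 and 0.648 against 0.196, 0.0827 and 0.470 TPM, by 0.53 ± 0.15. The last call was lost without Setd1bKO replicate 1 or without control replicate 2 (limma adjusted p up to 0.0681). Slc2a1 did not differ by a call with vehicle (-0.057 ± 0.064, limma adjusted p = 0.555), but after LPS it reached 69.6, 77.9 and 77.4 TPM against 53.7, 51.9 and 53.7 in controls, without overlap. That difference was 0.49 ± 0.064, and with Dex and LPS it was 0.58 ± 0.064 (limma adjusted p = 1.85e-05 and 4.13e-06). Pfkfb3 went the other way: with LPS it stood at 12.4, 14.5 and 13.98 TPM against 39.7, 37.8 and 37.04 TPM, a fall of 1.42 ± 0.090 (limma adjusted p = 4.75e-09). With Dex and LPS the gap was smaller, 51.1, 61 and 61.2 against 85.1, 72.98 and 64.7 TPM, or -0.35 ± 0.090 (limma adjusted p = 0.00641), and with vehicle it was -0.28 ± 0.090, a call lost without any 1 of 5 of the 6 libraries, all but control replicate 1 (limma adjusted p up to 0.0944).

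Pdk1 was lower in these libraries with vehicle and LPS, by 0.55 ± 0.11 and 0.77 ± 0.11, and differed by -0.22 ± 0.11 with Dex and LPS, where it was not called. P4ha2, the second collagen prolyl hydroxylase subunit, read 10.1, 12.1 and 13.7 TPM with LPS against 4.68, 4.75 and 6.32 TPM in controls and rose by 1.05 ± 0.23 (limma adjusted p = 0.00185). Pgk1 was higher under all 3 treatments, by 0.41 ± 0.032, 0.36 ± 0.032 and 0.52 ± 0.032 (limma adjusted p at most 2.20e-07). Of the mitophagy receptors, Bnip3l was higher under all 3 treatments, by 0.22 ± 0.055, 0.36 ± 0.055 and 0.36 ± 0.055. Ndrg1 stood at 10.5, 16.1 and 11.98 TPM with Dex and LPS against 21.2, 22.9 and 33.03 in controls, the lowest mean of its 6 BMDM groups, and fell by 0.94 ± 0.22 (limma adjusted p = 0.0035).

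Whether the response itself differed was tested as the difference of the 2 responses in 1 fit. For LPS over vehicle, 3 members had a higher response in the libraries labelled Setd1bKO, where 16.4% of all tested genes had, and 3 a lower one, where 5.43% had. Slc2a1 responded more, by 0.55 ± 0.090 (limma adjusted p = 4.56e-04), and Pfkfb3 and Hk1 less, by 1.14 ± 0.13 and 0.58 ± 0.078 (limma adjusted p = 1.15e-05 and 7.02e-05). The Slc2a3 difference of -0.89 ± 0.22 turned to 0.12 with a pseudocount of 0.1, since its levels with LPS were low. For Dex with LPS over LPS, 5 members responded more, where 2.69% of all tested genes did, and 0 less, where 3.53% did. Pfkfb3 was among them, with a difference of 1.07 ± 0.13 (limma adjusted p = 9.51e-05), and it went from 12.4, 14.5 and 13.98 TPM to 51.1, 61 and 61.2 TPM in the libraries labelled Setd1bKO. The other 4 were Hk1, with 0.47 ± 0.078, and Pdk1, Pfkp and P4ha1, whose calls were each lost without 1 of several libraries. The count of 5 became 2 without Setd1bKO replicate 3 of either treatment or control Dex with LPS replicate 3, and 3 without control replicate 2 of either treatment.

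**Figure D4:**
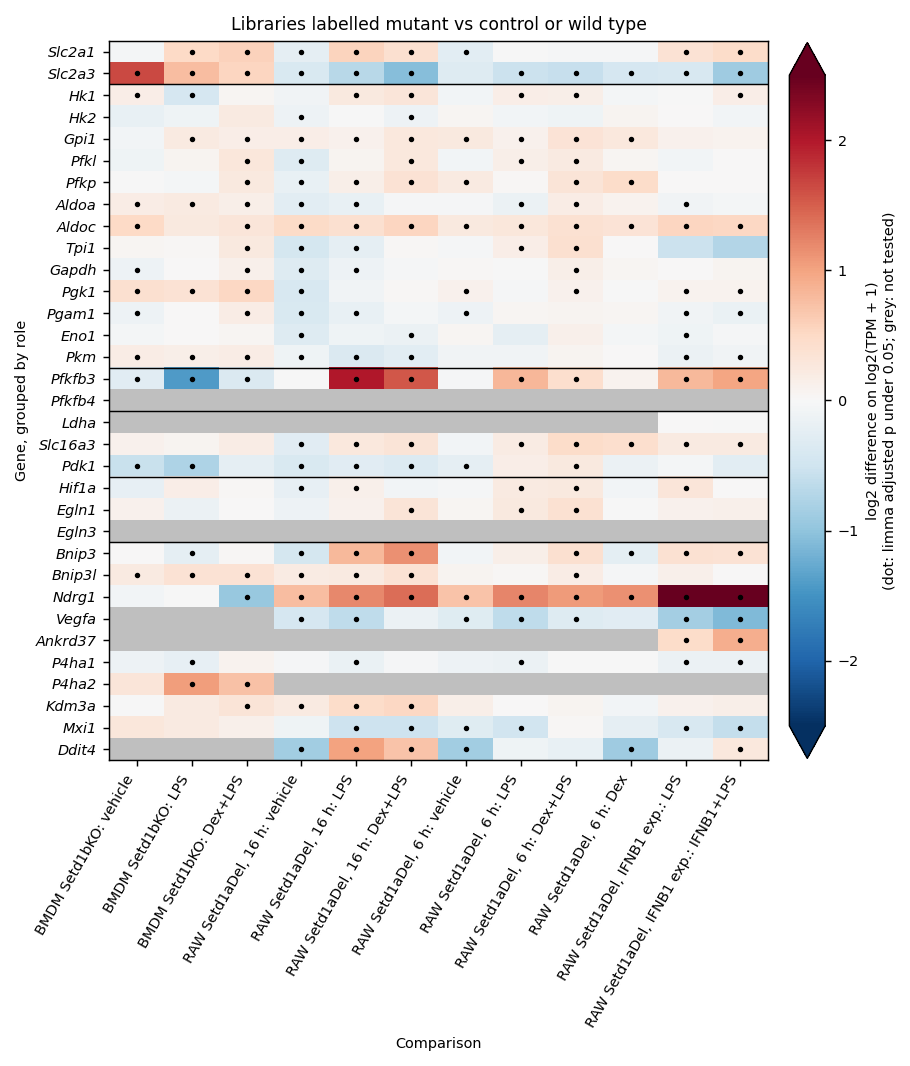
log2 differences on log2(TPM + 1) for the 33 members (rows, grouped by role) between libraries labelled Setd1bKO or Setd1aDel and their controls (columns, by experiment and treatment), with red for higher, blue for lower and grey for not tested. A dot marks a limma adjusted p under 0.05. Ndrg1 is red in all 9 Setd1aDel columns, Pfkfb3 is red in those with LPS and blue in the Setd1bKO columns.

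Heterozygous deletion of Setd1a in RAW264.7 cells went with higher Ndrg1 under all 9 treatments and, once LPS was present, with higher Pfkfb3. Across the 3 experiments with LPS, 5 of 28 members were higher in Setd1aDel each time (Pfkfb3, Aldoc, Slc16a3, Hif1a and Ndrg1) and 5 lower (Slc2a3, Aldoa, Vegfa, P4ha1 and Mxi1). After scaling these were 6 and 3, with Gpi1 added and Aldoa and P4ha1 lost. The number of all tested genes called alike in all 3 experiments, or under all 9 treatments, was not counted. With vehicle in the 16 h experiment 5 of 28 members rose, where 15.3% of all tested genes rose, and 18 fell, where 32.9% fell. With LPS 13 of 28 members rose, where 17.5% of all tested genes rose, and 10 fell, where 42.4% fell, and with Dex and LPS 14 of 28 members rose, where 17% of all tested genes rose, and 6 fell, where 47.6% fell. With vehicle in the 6 h experiment 5 of 28 members rose, where 6.58% of all tested genes rose, and 6 fell, where 15.6% fell. With LPS 10 of 28 members rose, where 9.19% of all tested genes rose, and 5 fell, where 12.3% fell, with Dex and LPS 17 of 28 members rose, where 13.1% of all tested genes rose, and 2 fell, where 13.1% fell, and with Dex alone 5 of 28 members rose, where 6.2% of all tested genes rose, and 3 fell, where 7.37% fell. In the IFNB1 experiment with LPS 9 of 30 members rose, where 17.7% of all tested genes rose, and 8 fell, where 24.9% fell, and with IFNB1 and LPS 10 of 30 members rose, where 15.8% of all tested genes rose, and 6 fell, where 38.4% fell. The 11 calls with vehicle in the 6 h experiment became 5, 6, 7 and 5 without Setd1aDel replicate 1, Setd1aDel replicate 2, wild-type replicate 2 and wild-type replicate 3. After median-of-ratios scaling 7 rose and 1 fell with vehicle in the 6 h experiment, 16 and 5 with LPS and 20 and 4 with Dex and LPS in the 16 h experiment, and 17 and 3 with IFNB1 and LPS. Over all genes the scaled counts were 974 and 717, 2391 and 2676, 2722 and 2702, and 2611 and 2365 in the same order.

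The genotypes also differed in cell markers. In the 16 h experiment the listed macrophage markers summed to 3012 to 3483 TPM with vehicle in wild-type cells and 23505 to 24625 TPM in Setd1aDel, where 10 of 11 rose and 0 fell. With LPS the sums were 5010.4 to 5373 and 11743 to 13513 TPM, although 5 rose and 5 fell. Those of the 6 h experiment were 9798 to 10116 and 12169 to 13018 TPM with vehicle and 8538 to 8696 and 7638 to 8107 TPM with LPS, and in the IFNB1 experiment 7214 to 7317 and 11289.6 to 11479.7 TPM with LPS. Of these markers 7 of 11 rose and 0 fell with vehicle at 6 h, 3 rose and 4 fell with LPS at 6 h, and 6 rose and 4 fell in the IFNB1 experiment. Proliferation markers were lower in Setd1aDel in the 16 h experiment, where 10, 9 and 11 of 12 fell with vehicle, LPS and Dex with LPS. At 6 h 8 and 11 of 12 rose with LPS and with Dex and LPS, the latter with sums of 841 to 879 TPM against 661 to 697 TPM. The osteoclast markers with LPS summed to 85.2 to 93.02 TPM in Setd1aDel against 175 to 184 TPM at 16 h and to 76.8 to 88.5 against 148 to 161 TPM at 6 h. The part of these shifts in the members' differences was not tested.

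Ndrg1 (chr15:66929318-66969640, minus strand) had the largest genotype differences of any member in the 6 h and IFNB1 experiments under LPS. It read in the 16 h experiment 38, 33.7 and 35.02 TPM in wild-type and 59.7, 57.4 and 68.1 in Setd1aDel cells with vehicle, and 33.4, 34.7 and 34.5 and 81.1, 79.7 and 77.8 TPM with LPS. With LPS in the 6 h experiment it read 88.6, 117 and 73.97 and 216, 228 and 205 TPM, and in the IFNB1 experiment with LPS 8.70, 10 and 10 and 63.3, 58 and 58.4 TPM. Setd1aDel libraries lay above wild-type libraries in all of these, although the wild-type level itself differed several-fold between the experiments, the last of which was normalized apart from the others. The difference was 0.78 ± 0.086, 1.19 ± 0.086 and 1.39 ± 0.086 with vehicle, LPS and Dex with LPS in the 16 h experiment. It was 0.72 ± 0.19, 1.23 ± 0.19, 1.07 ± 0.19 and 1.14 ± 0.19 with vehicle, LPS, Dex with LPS and Dex in the 6 h experiment, and 2.53 ± 0.081 and 2.68 ± 0.081 without and with IFNB1 (limma adjusted p at most 0.00928 over the 9). The vehicle call of the 6 h experiment was lost without Setd1aDel replicate 3 or wild-type replicate 1 (limma adjusted p up to 0.0648). Aldoc, a brain-type aldolase, was the only other member called higher in all 9, by 0.24 to 0.53, and Gpi1 joined them after scaling.

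Pfkfb3 showed no called difference between the genotypes with vehicle, at 10.2, 11.1 and 11.6 and 11.04, 10.8 and 10.7 TPM in the 16 h experiment and 8.13, 7.09 and 7.56 and 7.78, 7.38 and 7.01 TPM in the 6 h experiment, where the groups overlapped (-0.0097 ± 0.043 and -0.033 ± 0.059, limma adjusted p = 0.874 and 0.738). With LPS it reached 98.8, 95.4 and 103 TPM in Setd1aDel against 23.6, 23.8 and 24.6 in wild-type cells of the 16 h experiment. At 6 h it reached 21.6, 22.9 and 21.5 against 11.5, 12.6 and 11.6 TPM, and in the IFNB1 experiment 24.6, 26.3 and 25.6 against 12.5, 14.9 and 14.8 TPM. No Setd1aDel library overlapped the wild-type libraries under LPS. The differences were 2.00 ± 0.043, 0.83 ± 0.059 and 0.82 ± 0.073 (limma adjusted p = 6.07e-15, 4.15e-09 and 5.00e-06). The LPS response of Pfkfb3 was larger in Setd1aDel by 2.01 ± 0.060 in the 16 h and by 0.87 ± 0.083 in the 6 h experiment (limma adjusted p = 1.39e-12 and 1.68e-06). Its further rise with Dex was smaller there, by 0.45 ± 0.060 and 0.41 ± 0.083 (limma adjusted p = 1.40e-04 and 0.00607).

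**Figure D5:**
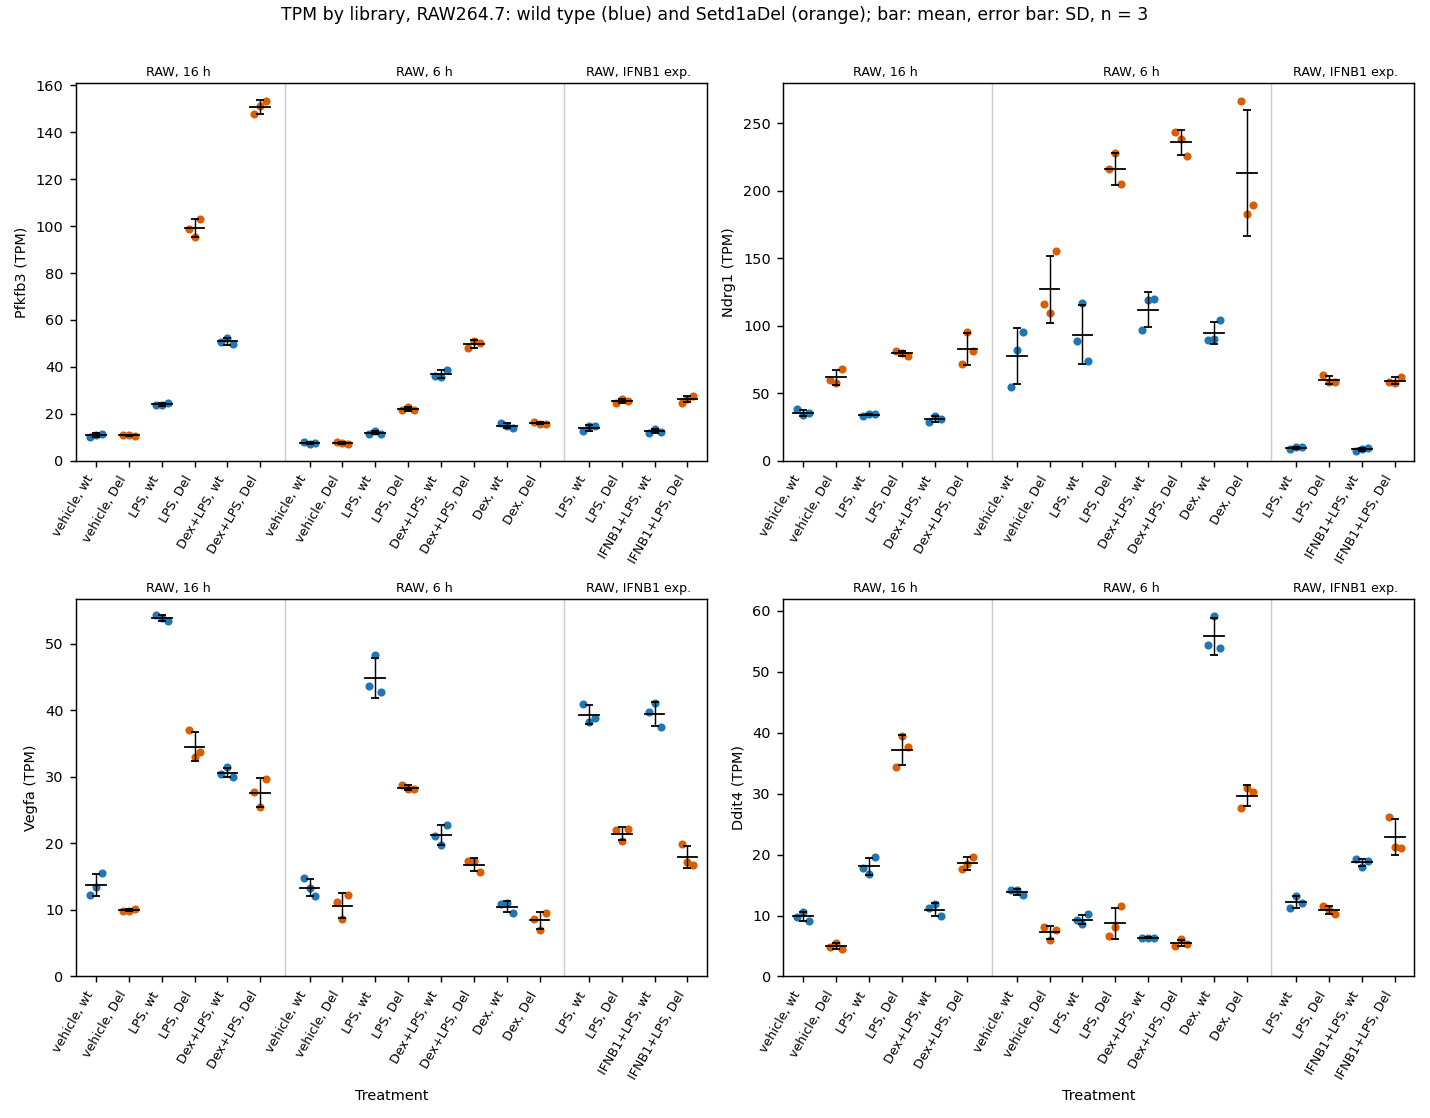
TPM of Pfkfb3, Ndrg1, Vegfa and Ddit4 (1 panel each, linear axis from 0) in each RAW264.7 library of the 3 experiments, with wild-type in blue and Setd1aDel in orange. Points are libraries, horizontal bars means and error bars SD (n = 3). Setd1aDel libraries sit above wild-type for Pfkfb3 once LPS is present and for Ndrg1 throughout. For Vegfa they sit below it in all arms but vehicle and Dex alone of the 6 h experiment, where libraries overlap.

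The other transporters and targets differed by treatment. Slc2a3 was lower in Setd1aDel with LPS, at 7.99, 8.38 and 7.99 TPM against 14.1, 13.7 and 13.3 in the 16 h experiment and 5.22, 7.75 and 5.96 against 9.50, 9.14 and 9.81 in the 6 h experiment, by 0.69 ± 0.056 and 0.53 ± 0.13, and by 0.40 ± 0.14 in the IFNB1 experiment (limma adjusted p = 4.70e-08, 0.00689 and 0.0353). The last call was lost without any 1 of 5 of the 6 libraries, all but wild-type replicate 1 (limma adjusted p up to 0.11). Slc2a1 was higher with LPS in the 16 h experiment, at 272, 285 and 285 against 191, 186 and 196 TPM, by 0.55 ± 0.046, and in the IFNB1 experiment, by 0.37 ± 0.028, but differed by -0.0022 ± 0.068 in the 6 h experiment (limma adjusted p = 0.986). LPS at the same dose and time thus went with a called difference in 2 of the 3 experiments, whose vehicle exposure differed in length or was not recorded. Vegfa with LPS was lower in Setd1aDel in all 3, at 36.97, 32.9 and 33.7 against 54.3, 53.8 and 53.4, 28.8, 28.1 and 28.1 against 43.7, 48.3 and 42.7 and 22, 20.3 and 22.1 against 40.9, 38.2 and 38.8 TPM. The groups did not overlap, and Vegfa fell by 0.63 ± 0.069, 0.64 ± 0.11 and 0.84 ± 0.065 (limma adjusted p at most 2.69e-04).

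Ddit4 turned with LPS in the 16 h experiment. With vehicle it stood at 4.91, 5.48 and 4.45 TPM in Setd1aDel against 9.82, 10.6 and 9.17 in wild-type cells, and with LPS at 34.4, 39.4 and 37.7 against 17.8, 16.8 and 19.5 TPM. It was thus lower without LPS and higher with it, by -0.87 ± 0.082 and 1.00 ± 0.082, and the LPS response differed by 1.87 ± 0.12 (limma adjusted p = 4.37e-09). In the 6 h experiment it was lower with vehicle, by 0.87 ± 0.13, and with Dex alone, by 0.89 ± 0.13, and differed by -0.11 ± 0.13 with LPS, where the groups overlapped. Bnip3 followed the same order in the 16 h experiment, at 42.3, 41.5 and 44.4 against 50.9, 60.99 and 63.9 TPM with vehicle and 138, 136 and 139 against 73.6, 80.5 and 79.5 TPM with LPS. It fell by 0.44 ± 0.068 with vehicle and rose by 0.82 ± 0.068 with LPS and 1.13 ± 0.068 with Dex and LPS. Bnip3 with LPS in the 6 h experiment differed by 0.15 ± 0.063 and was not called (limma adjusted p = 0.103).

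Most glycolytic enzymes were lower in Setd1aDel with vehicle in the 16 h experiment: Pfkl, Pfkp, Aldoa, Tpi1, Gapdh, Pgk1, Pgam1, Eno1, Pkm and Hk2 fell by between 0.11 and 0.44. The 13 enzymes summed to 12863 to 12996 TPM there against 14721 to 15930.4 TPM in wild-type cells, without overlap. In the 6 h experiment, also with vehicle, they summed to 11209.9 to 11794 against 11329.6 to 11823 TPM, with overlap, and only Gpi1, Pfkp, Aldoc and Pgk1 rose and Pgam1 fell among them. The vehicle arms differed in length, 16 h against 6 h. In the IFNB1 table Tpi1 was uneven, at 132, 196 and 119 TPM in wild-type libraries with LPS, and its differences there were not called.

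The LPS response differed between the genotypes for many members in the 16 h experiment and for few in the 6 h experiment. There were 16 members in the 16 h experiment that responded more in Setd1aDel, where 13.1% of all tested genes did, and 4 less, where 20.3% did. Beside Pfkfb3 and Ddit4, the largest were Bnip3 with 1.26 ± 0.096, Slc2a1 with 0.77 ± 0.066 and Slc16a3 with 0.53 ± 0.058 (limma adjusted p at most 2.66e-06). In the 6 h experiment 4 responded more, where 2.97% did, and 0 less, where 2.63% did. The 4 calls became 2 without Setd1aDel LPS replicate 2, wild-type LPS replicate 3, or vehicle replicate 1 or 2 of Setd1aDel or 2 or 3 of the wild type. The response to Dex under LPS was higher for 5 members and lower for 2 in the 16 h experiment, where 2.88% and 7.68% of all tested genes were. The 7 calls of that experiment became 4 without any 1 of 6 libraries: Setd1aDel Dex with LPS replicate 2 or 3, Setd1aDel LPS replicate 1 or 2, wild-type Dex with LPS replicate 1 or wild-type LPS replicate 2. That response in the 6 h experiment was higher for 6 and lower for 1, where 3.25% and 2.04% were. These 7 calls became 3 or 4 without Setd1aDel Dex with LPS replicate 1 or 3, Setd1aDel LPS replicate 1 or 2, wild-type Dex with LPS replicate 2 or any wild-type LPS replicate. The response to Dex alone was higher for 1 member, Slc16a3, and lower for 0, where 0.189% and 0.1% of all tested genes were. That call was lost without any 1 of 9 of the 12 libraries, all but Setd1aDel Dex replicate 1, Setd1aDel vehicle replicate 3 and wild-type Dex replicate 1.

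IFNB1, the type I interferon that macrophages release after LPS, was added to LPS in the third RAW264.7 experiment. In wild-type cells Pdk1, Ankrd37, Egln1, Bnip3 and Slc16a3 were lower with it, while Ddit4 and P4ha1 were higher. Of the 9 hypoxia-induced genes tested, 3 fell, 2 rose and 4 were not called. In these cells 4 of 30 members rose, where 9.5% of all tested genes rose, and 13 fell, where 23.5% fell, with a member median of -0.15 beside -0.089 over all tested genes, and after scaling 7 rose and 8 fell. Over all genes, 1601 rose and 1353 fell after scaling. Pdk1 read 38.1, 38.1 and 39.6 TPM with LPS and 20.8, 25.9 and 24.2 TPM with IFNB1 and LPS, and Ankrd37, an ankyrin repeat gene, 16, 14.3 and 14.4 and 9.90, 8.10 and 9.20 TPM. Neither overlapped. Pdk1 fell by 0.69 ± 0.13, Ankrd37 by 0.66 ± 0.083 and Egln1 by 0.54 ± 0.072 (limma adjusted p = 0.00182, 1.32e-04 and 2.19e-04). Bnip3 fell by 0.41 ± 0.063 and Slc16a3 by 0.37 ± 0.038. Ddit4 rose from 11.3, 13.2 and 12 to 19.2, 18 and 18.9 TPM, by 0.58 ± 0.086 (limma adjusted p = 4.21e-04). P4ha1 rose from 134, 132 and 134 to 158, 163 and 160.2 TPM, by 0.27 ± 0.036 (limma adjusted p = 2.35e-04). Hif1a and Vegfa differed by 0.021 ± 0.052 and 0.0044 ± 0.065 and were not called. Ldha fell by 0.18 ± 0.020 (limma adjusted p = 5.84e-05), from 2060.2, 2092 and 2018 to 1818, 1814 and 1826 TPM. The authors' deposited results give it a smaller difference of -0.0839, with an adjusted p not under 0.05. In Setd1aDel cells the IFNB1 response was higher for 2 members, Ankrd37 and Ddit4, and lower for 1, Hif1a, where 3.31% and 8.01% of all tested genes were. In wild-type cells the proliferation markers went from 1506 to 1512 to 1229 to 1265 TPM and the macrophage markers from 7214 to 7317 to 6570.2 to 6602 TPM with IFNB1, where 9 of 12 of the former fell and 0 rose, and their part was not tested. The 3 calls of the difference were lost when genes below the level filter were tested too, and their number became 0 or 1 without any 1 of 9 of the 12 libraries and 5 without Setd1aDel IFNB1 with LPS replicate 3. It was 2 without Setd1aDel IFNB1 with LPS replicate 1 or wild-type LPS replicate 3.

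Of the neighbouring pathways, more genes fell than rose with LPS among other glycolytic, pentose phosphate and tricarboxylic acid cycle genes in all 3 experiments, and among other hypoxia genes in BMDM but in neither RAW264.7 experiment. Over all tested genes 64.7%, 66.1% and 52.3% fell in BMDM, the 16 h and the 6 h experiment. Among other glycolytic isozymes and transporters, 2 rose and 24 fell of 30 in control BMDM, 2 rose and 21 fell of 28 in the 16 h and 5 rose and 14 fell of 28 in the 6 h experiment. Slc2a6, a lysosomal hexose transporter, rose most in BMDM, by 4.74. Of other genes of the HIF pathway and of hypoxia, 8 rose and 19 fell of 35 in BMDM, 14 rose and 13 fell of 33 in the 16 h and 15 rose and 7 fell of 33 in the 6 h experiment. Adm, a vasodilator peptide, rose by 3.42 in BMDM, and Adora2b, an adenosine receptor, by 3.35, 4.08 and 3.70 in the 3 experiments. In the pentose phosphate pathway, which branches off after hexokinase, 2 rose and 9 fell of 11, 0 rose and 10 fell of 11 and 0 rose and 9 fell of 11. In the list for the tricarboxylic acid cycle, which burns pyruvate, 3 rose and 19 fell of 23, 1 rose and 21 fell of 25 and 1 rose and 19 fell of 25. That list also counts Idh1, a cytosolic enzyme outside the cycle itself, at -3.13 in BMDM. Of glycolysis regulators outside HIF, 2 rose and 9 fell of 16, 2 rose and 10 fell of 15 and 3 rose and 6 fell of 15, and Myc rose by 5.26 and 3.89 in RAW264.7 cells. In Setd1aDel with LPS the tricarboxylic acid cycle genes numbered 2 rose and 19 fell of 25 in the 16 h, 0 rose and 2 fell of 25 in the 6 h and 2 rose and 12 fell of 23 in the IFNB1 experiment, where 42.4%, 12.3% and 24.9% of all tested genes fell. With Dex and LPS against LPS in BMDM, 16 rose and 5 fell of 30 other glycolytic genes and 21 rose and 5 fell of 35 other hypoxia genes, where 44.8% of all tested genes rose and 15.2% fell. Among the latter list Dusp1, a glucocorticoid-induced phosphatase, rose by 2.84.

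The authors' deposited tables of their own comparisons cover 4 of these contrasts in wild-type or control cells. Of the members, 19 of 27 had an adjusted p under 0.05 for Dex with LPS over LPS in BMDM in the authors' deposited table, 18 of 28 in the 16 h and 15 of 28 in the 6 h experiment, and 13 of 30 for IFNB1. Of the members called here, 15 of 17, 9 of 15, 11 of 11 and 11 of 17 were called with the same sign in the authors' deposited table, and 0 with the opposite sign. In the 16 h experiment the authors' deposited table has 4 members higher and 14 lower, closer to the scaled count given for that contrast (4 and 13) than to the count on TPM as deposited.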

How the data were processed

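Poly(A) RNA of 72 libraries was sequenced with a stranded kit, per the labels' protocols. The authors deposited TPM per gene, and the submitters' processing notes name Salmon 0.10.2, DESeq2 and R 3.6.0 with builds GRCm38.p6 and mm10. The unit of the IFNB1 table, whose values have 1 decimal, was taken as TPM from its values. The authors' deposited tables also give a log2 fold change and an adjusted p-value per gene for their own contrasts.

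Members and lists were chosen with earlier results of these data known. Each experiment was fitted alone with limma 3.58.1 (R 4.3.3, trended prior) on log2(TPM + 1), 1 mean per group, on genes at 1 TPM or more in at least 3 libraries. P-values were two-sided and adjusted by Benjamini-Hochberg over all tested genes (9159, 8964, 8981 and 10923 for BMDM, 16 h, 6 h and IFNB1). Called means an adjusted p under 0.05, rose and fell refer to called differences, and there were 28 comparisons. Any member could be named in any comparison, as could up to 4 called genes of each pathway list with the largest absolute differences, and Setd1a, Setd1b, Nr3c1, Il1b, Tsc22d3 and Ifit1 as checks. Results were recomputed with a replicate block, with median-of-ratios scaling, without the filter, with 0.1 as the pseudocount, with the compared groups alone and without each library in turn. The fit was tested on simulated data. All 72 columns of values were matched to a library by name. Coordinates are GRCm38 from the GENCODE vM21 annotation and promoter sequences from RefSeq GRCm38.p6. Markers of 8 cell types or states and 5 pathway lists were counted.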

Additional observations from a re-analysis of the deposited data

Results flagged for a closer look

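The responses listed here differed between 2 genotypes by a test of the difference itself (limma, adjusted p under 0.05), and each value is a log2 difference of responses, mutant minus control, on log2(TPM + 1). For LPS over vehicle in BMDM, libraries labelled Setd1bKO responded higher for Slc2a1 at 0.55, Gpi1 at 0.31 and Hif1a at 0.37, and lower for Slc2a3 at -0.89, Hk1 at -0.58 and Pfkfb3 at -1.14. The sign of Slc2a3 turned with a pseudocount of 0.1. For Dex with LPS over LPS in BMDM, they responded higher for Hk1 at 0.47, Pfkp at 0.29, Pfkfb3 at 1.07, Pdk1 at 0.55 and P4ha1 at 0.29.

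For LPS over vehicle in the 16 h RAW264.7 experiment, Setd1aDel responded higher for Slc2a1 at 0.77, Hk1 at 0.34, Pfkl at 0.38, Pfkp at 0.34, Pfkfb3 at 2.01, Tpi1 at 0.21, Gapdh at 0.21, Pgk1 at 0.31, Pgam1 at 0.18, Slc16a3 at 0.53, Hif1a at 0.34, Egln1 at 0.23, Bnip3 at 1.26, Ndrg1 at 0.42, Kdm3a at 0.23 and Ddit4 at 1.87, and lower for Slc2a3 at -0.31, Pkm at -0.26, P4ha1 at -0.13 and Mxi1 at -0.42. For Dex with LPS over LPS there, Setd1aDel responded higher for Pfkl at 0.20, Pfkp at 0.21, Tpi1 at 0.26, Bnip3 at 0.32 and Vegfa at 0.48, and lower for Slc2a3 at -0.37 and Pfkfb3 at -0.45. Both responses are measured from libraries that also enter the other, so they are not independent.

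In the 6 h experiment the LPS response of Setd1aDel was higher for Pfkfb3 at 0.87, Pdk1 at 0.38, Hif1a at 0.26 and Ddit4 at 0.76. Its response to Dex under LPS was higher for Gpi1 at 0.23, Aldoa at 0.32, Tpi1 at 0.25, Gapdh at 0.15, Pgk1 at 0.14 and Mxi1 at 0.51, and lower for Pfkfb3 at -0.41. Its response to Dex alone was higher for Slc16a3 at 0.49. With IFNB1 over LPS alone, Setd1aDel responded higher for Ankrd37 at 0.44 and Ddit4 at 0.42, and lower for Hif1a at -0.30. Pfkfb3, Hif1a and Ddit4 had a higher LPS response in Setd1aDel in both RAW264.7 experiments that hold a vehicle group.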

How the results depend on the processing

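All 28 counts and the member values were recomputed under each alternative, except 3 values that had no fit with only the compared groups. Median-of-ratios scaling, which moved the all-gene median by up to 0.49, reversed 30 member differences: for LPS in control BMDM Aldoa from -0.52 to 0.021, Gapdh from -0.26 to 0.28, Pgk1 from -0.14 to 0.39, Eno1 from -0.25 to 0.29 and Bnip3 from -0.32 to 0.19. For Dex with LPS in control BMDM Slc2a1 from 0.073 to -0.14, Gapdh from 0.0072 to -0.21 and Pgam1 from 0.051 to -0.17. For the libraries labelled Setd1bKO with LPS Pgam1 from 0.0065 to -0.11. For LPS in the 16 h experiment Slc2a3 from -0.36 to 0.032, Aldoa from -0.20 to 0.21, Tpi1 from -0.21 to 0.20, Gapdh from -0.11 to 0.30, Ndrg1 from -0.054 to 0.35 and Kdm3a from -0.17 to 0.20. For Dex with LPS there Gapdh from 0.0093 to -0.10 and Pkm from 0.013 to -0.099. For Setd1aDel with LPS in the 16 h experiment Hk2 from -0.017 to 0.089. For Setd1aDel with Dex and LPS there Hk2 from -0.12 to 0.033, Aldoa from -0.029 to 0.13, Gapdh from -0.037 to 0.12, Pgam1 from -0.046 to 0.11, Eno1 from -0.14 to 0.013 and P4ha1 from -0.029 to 0.13. For LPS in the 6 h experiment Pfkp from -0.052 to 0.20, Aldoa from -0.19 to 0.070 and Tpi1 from -0.10 to 0.16. For Setd1aDel with IFNB1 and LPS Pkm from -0.089 to 0.054, Ldha from -0.0020 to 0.14 and P4ha1 from -0.14 to 0.0044. The pseudocount of 0.1 reversed 1 value, the Slc2a3 difference of LPS responses in BMDM, from -0.89 to 0.12. Under scaling 59 member calls were lost and 48 gained, and fitting only the compared groups lost 51 and gained 12. Counts of called members moved by over 1.5 times as follows. For the libraries labelled Setd1bKO with Dex and LPS 17 became 10 with scaling and 10 with only the compared groups. For the difference of Dex responses 5 became 2 in BMDM with only the compared groups, 7 became 13 in the 16 h experiment with scaling, and 7 became 4 with scaling and 3 with only the compared groups in the 6 h experiment. The 1 member for Dex alone became 0 with either, and 11 became 6 for Setd1aDel with vehicle at 6 h with only the compared groups. The IFNB1 difference of 3 became 0 without the level filter.

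Leaving out 1 library at a time gave these ranges of called members. In BMDM they were 26 to 27 for LPS, 16 to 17 for Dex, 7 to 10, 11 to 14 and 14 to 17 for the libraries labelled Setd1bKO with vehicle, LPS and Dex with LPS, and 5 to 7 and 2 to 6 for the differences of the LPS and Dex responses. In the 16 h experiment they were 25, 14 to 15, 23 to 24, 21 to 23, 19 to 21, 17 to 20 and 4 to 6 in the same order. In the 6 h experiment they were 23 to 25 for LPS, 9 to 12 for Dex with LPS, 18 to 21 for Dex, 5 to 8, 10 to 12, 16 to 18 and 6 to 8 for Setd1aDel with vehicle, LPS, Dex with LPS and Dex, and 2 to 5, 3 to 6 and 0 to 1 for the differences. In the IFNB1 experiment they were 15 to 17, 13 to 15, 15 to 19 and 0 to 5. Of 404 member calls, 78 were lost without some 1 library, and none changed direction. The cause of these moves was not tested. Same-numbered libraries did not pair: their mean correlation after removing group means was between -0.027 and 0.0076, and 10 of 18, 1 of 18, 10 of 24 and 4 of 12 libraries (BMDM, 16 h, 6 h, IFNB1) were closest to their own number. With a replicate block every count stayed within 1.5 times, between 1 and 27 called members, and 14 member calls were lost and 5 gained. TPM hold no read depth, so no limit from depth can be given for low genes such as Slc2a3 in BMDM.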
